A study of Mus musculus with 2 samples.

Results

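The genes described here write, maintain, remove or read cytosine methylation in DNA. They are Dnmt1, Dnmt3a, Dnmt3b, Tet1, Tet2, Tet3, Uhrf1, Mbd1 and Mbd2, taken by symbol from an expression table of 26037 genes, and each of the 9 had its own entry. The table holds 2 RNA-seq libraries of primary cells from C57BL/6 mice, 1 labelled MMP9 knockout and 1 labelled control. Both cultures were started from marrow of animals aged 6 to 8 weeks, expanded in the macrophage growth factor M-CSF at 5 and then 30 ng/ml, and given RANKL, the cytokine that induces osteoclasts, for 3 days. The labels name the cells primary osteoclasts. The column headings add the letters sh for the knockout and NCsh for the control, which no source used here explains, and it is therefore unknown if the gene was removed or its mRNA knocked down. With 1 library per genotype no test between genotypes was possible, and every difference below describes these 2 libraries.

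Methyl groups are placed on CpG sites de novo by the methyltransferases Dnmt3a and Dnmt3b, and Dnmt1 copies them to the new strand after replication, guided by Uhrf1, which binds hemimethylated DNA. Tet1, Tet2 and Tet3 oxidise methylcytosine as a first step of its removal, and Mbd1 and Mbd2 bind methylated CpGs and bring in repressors of transcription. In mouse osteoclast precursors, Dnmt3a is known for methylating and silencing Irf8, a gene that restrains osteoclast formation. In human monocytes turning into osteoclasts, the factor PU.1 has been found with DNMT3B and TET2.

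The promoter windows of RefSeq on GRCm38.p6, each running from 250 bases before to 50 bases after a start site, matched 7 of the 9 genes with 12 windows. Those of Dnmt3a are shown because it was the member with a 2-fold lower level, and those of Dnmt1 and Uhrf1 because these were the only matched members whose windows held an E2F element. Dnmt3a has its upstream starts in a window pair on chromosome 12 and an internal start 84764 bases downstream of the first, which gives the shorter protein Dnmt3a2. Capitals mark CpG sites in both Dnmt3a windows, and the E2F element in the Dnmt1 and Uhrf1 windows.
Dnmt3a upstream start, chr12:3806910-3807209, plus strand: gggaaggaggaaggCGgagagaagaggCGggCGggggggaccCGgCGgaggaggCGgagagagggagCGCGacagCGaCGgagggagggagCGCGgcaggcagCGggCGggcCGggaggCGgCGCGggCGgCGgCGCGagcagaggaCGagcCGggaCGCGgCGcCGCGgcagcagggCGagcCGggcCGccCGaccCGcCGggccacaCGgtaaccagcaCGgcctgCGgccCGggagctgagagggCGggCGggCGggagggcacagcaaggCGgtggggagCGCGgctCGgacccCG
Dnmt3a internal start, chr12:3891494-3891793, plus strand: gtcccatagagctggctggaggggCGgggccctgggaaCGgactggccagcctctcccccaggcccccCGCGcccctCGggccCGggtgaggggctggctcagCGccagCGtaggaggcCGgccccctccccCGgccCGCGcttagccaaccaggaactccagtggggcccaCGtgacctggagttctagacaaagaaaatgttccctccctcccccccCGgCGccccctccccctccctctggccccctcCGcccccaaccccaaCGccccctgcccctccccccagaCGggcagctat
Dnmt1, chr9:20952574-20952873, minus strand: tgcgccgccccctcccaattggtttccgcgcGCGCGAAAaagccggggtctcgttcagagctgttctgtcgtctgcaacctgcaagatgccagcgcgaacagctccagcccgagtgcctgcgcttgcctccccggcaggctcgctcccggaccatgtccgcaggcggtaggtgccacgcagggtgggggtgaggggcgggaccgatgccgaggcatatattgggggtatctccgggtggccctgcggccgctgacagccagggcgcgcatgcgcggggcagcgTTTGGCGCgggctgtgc
Uhrf1, chr17:56304063-56304362, plus strand: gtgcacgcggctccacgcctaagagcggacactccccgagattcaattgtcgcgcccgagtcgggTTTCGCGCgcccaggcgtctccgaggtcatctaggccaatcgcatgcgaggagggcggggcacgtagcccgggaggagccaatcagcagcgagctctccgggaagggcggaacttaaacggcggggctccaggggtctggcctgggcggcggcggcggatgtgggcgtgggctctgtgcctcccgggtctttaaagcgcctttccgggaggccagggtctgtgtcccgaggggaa

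The upstream Dnmt3a window held 47 CpG sites, more than 98.6% of the 32851 windows in the RefSeq table, and the internal window held 18, more than 70.3%. The median window held 7. The Tet2 window had the most among the members, at 57. E2F proteins drive genes of the G1 to S transition, and the element was searched on both strands in the spellings TTTCCCGC, TTTCGCGC, TTTGCCGC and TTTGGCGC, each of which contains a CpG. It was found in 2.26% of all windows. Dnmt1 carried GCGCGAAA at position -219 and TTTGGCGC at position 33 relative to the start site of the window shown, and Uhrf1 carried TTTCGCGC at position -185. The Dnmt1 window is the most downstream of the gene's 3, and its start lies 7265 bases from the first. Another Dnmt1 start, 6909 bases from the first, lies upstream of both matches, and its own window held no E2F element. The Uhrf1 window shown is also the more downstream, with its start 976 bases from the first. A match is a description of letters and not of binding, and the expression table counts reads per gene, so the starts of Dnmt3a could not be separated.

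The libraries held 17741432 reads for the knockout and 20678441 for the control. Levels are normalised read counts, that is, reads times a fixed factor of each library and not divided by gene length, and the intervals in parentheses are 95% intervals that cover counting error only. No molecular identifiers are described, so PCR copies of a molecule may be counted more than once and the true error may be larger. Mmp9, the targeted gene, was at 3.87 in the knockout and 139.4 in the control, 35.99-fold lower in the knockout (30.8 to 42.3). The part of the lower osteoclast markers, given next, in this difference was not tested. The osteoclast markers stood apart in the same direction: each of the 8 was past 2-fold on the lower side, against 9.58% of all compared genes, and their summed level was 215 in the knockout and 6307 in the control. Of the 8, Calcr, Oscar and Itgb3 were below a level of 1 in the knockout and reached the limit for comparison through the control alone. The bone-resorbing protease gene Ctsk was at 42.9 in the knockout and 3745 in the control, and the phosphatase gene Acp5 (TRAP) at 114 and 1828, so the knockout library held little of the marker RNA of the labelled cell type. Of 8 macrophage markers 6 could be compared, of which 4 were higher, against 4.00% of all compared genes, and Cd68 was lower, at 60.9 in the knockout and 150.2 in the control. Csf1r was within 2-fold, at 564 in the knockout and 751 in the control. Fcgr1, among the 4 higher markers, had no read in the control and reached the limit through the knockout alone. The summed level of the macrophage markers was 1276 in the knockout and 969 in the control. In bulk RNA, fewer cells of a type and less RNA per cell cannot be told apart. The defining markers of B, T and NK cells, neutrophils and stromal cells were at or near 0: 15 of 21 had no read in either library, and their summed level was 0.665 in the knockout and 0.124 in the control. Of all 26037 genes, 16658 had a read in at least 1 library.

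Of the 9 genes, 8 reached a mean level of 1 over both libraries, the limit for a comparison, and all 8 were above it in each library. A gene was counted as lower or higher when it differed by at least 2-fold after a pseudocount of 1 was added, which understates differences of low genes. On this scale 1 member, Dnmt3a, was lower in the knockout, 0 were higher and 7 were within 2-fold. Over the 11126 compared genes 9.58% were lower and 4.00% were higher, so 1 of 8 lower, or 12.5%, was near the background and is not a result about the 9 genes as a group. The median log2 ratio of the 8 members was -0.08, against -0.16 over all compared genes. The split of all genes depended on the scaling, with 445 higher and 1066 lower as deposited, 565 and 799 with the median ratio set to 0, 572 and 791 with a trimmed mean of ratios, 562 and 701 after centring by GC content, and 674 and 684 when both libraries had the same sum. Under these scalings and the GC centring the median of the 8 members turned to between 0.10 and 0.20. That of all compared genes was then between -0.0004 and 0.10.

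**Figure D1:**
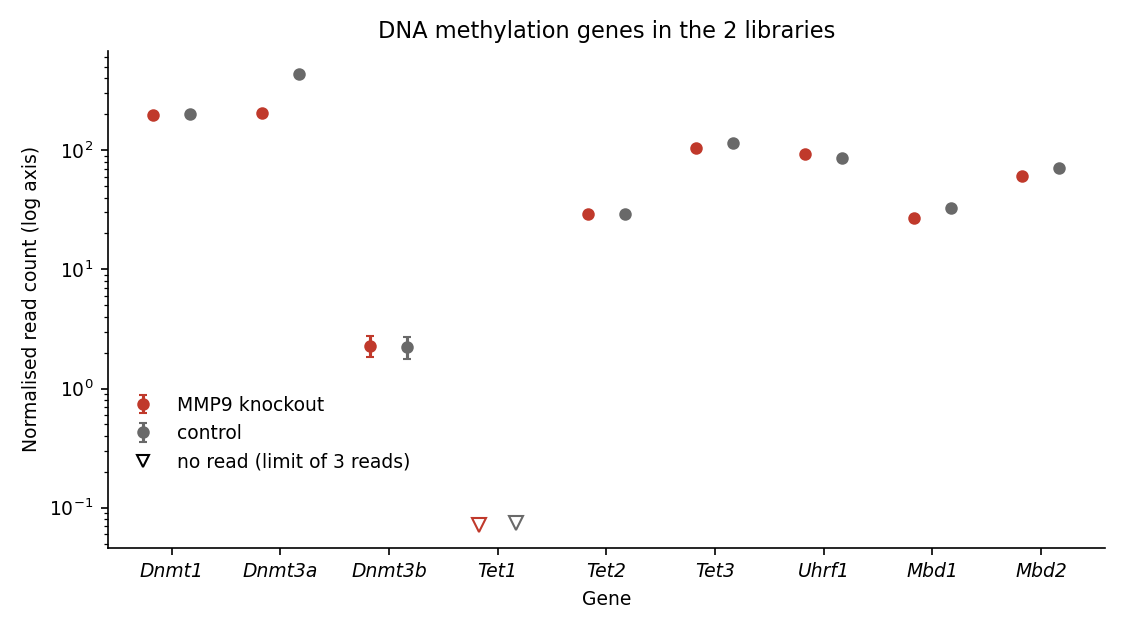
Normalised read counts (log axis) of the 9 genes in the MMP9 knockout (red) and control (grey) library, with 95% intervals for counting error, most of them smaller than the point. Dnmt3a is at 207 in the knockout and 435 in the control, Dnmt3b is near 2 in both, and Tet1 (open triangles, the limit of 3 reads) had no read.

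Dnmt3a, the de novo methyltransferase (ENSMUSG00000020661, GRCm38 chromosome 12 plus strand, 3806007 to 3914443), was at 207 in the knockout and 435 in the control. These levels rest on 8699 and 17499 reads, so Dnmt3a was 2.10-fold lower in the knockout (2.05 to 2.16), with a log2 ratio of -1.07. Of the compared genes, 8.34% had a lower ratio. The difference stayed on the lower side under each scaling but was past 2-fold only with the scaling as deposited, there with each pseudocount: the log2 ratio was -0.89 with the median of all genes set to 0, -0.88 with a trimmed mean, -0.86 after centring by GC content and -0.78 with equal sums. The antisense gene Dnmt3aos, which overlaps it, was at 0.261 in the knockout and 0.596 in the control, and it is not stated if reads were counted by strand. The osteoclast markers listed above were lower too, and their part in the lower Dnmt3a level was not tested.

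Dnmt3b, the second de novo enzyme (ENSMUSG00000027478, chromosome 2 from 153649450 to 153687730), was low in both libraries. It was at 2.28 in the knockout and 2.21 in the control, from 96 and 89 reads, a ratio of 1.03 (0.765 to 1.39). At this depth a difference within that interval was not detectable. The cofactor Dnmt3l, which has no catalytic activity of its own and stimulates the de novo enzymes in germ cells, had 1 read in each library.

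Dnmt1, the maintenance enzyme (ENSMUSG00000004099, chromosome 9 minus strand, 20907209 to 20959888), was at 196 in the knockout and 199.7 in the control. The ratio of 0.983 had an interval of 0.953 to 1.01, which includes 1, and its log2 value turned to between 0.15 and 0.29 under the scalings and the centring by GC content. Uhrf1, its guide to hemimethylated sites, was at 92.1 in the knockout and 86.0 in the control, a ratio of 1.07 (1.02 to 1.12). That interval lies above 1, and the log2 ratio of 0.10 was between 0.27 and 0.41 under the scalings and the centring by GC content. Both genes are known to be expressed in S phase. Reads of Uhrf1 per read of Dnmt1 were 0.469 in the knockout and 0.431 in the control.

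Ratios between genes within a library do not depend on how the libraries were scaled. There were 1.05 Dnmt3a reads for each Dnmt1 read in the knockout and 2.18 in the control, a 2.07-fold lower ratio in the knockout (1.99 to 2.15). Against each of the other members with reads the ratio was also lower in the knockout, by 1.72-fold to 2.25-fold. Dnmt3a had the lowest log2 ratio of the members, so the direction of all these ratios was fixed in advance. They, and the share of methyltransferase reads below, restate the same Dnmt3a difference and add no separate support to it. Dnmt3a reads per Uhrf1 read were 2.24 in the knockout and 5.06 in the control, 2.25-fold lower (2.14 to 2.38). Per Dnmt3b read they were 90.6 in the knockout and 197 in the control, 2.17-fold lower (1.61 to 2.93), and per Tet2 read 7.03 and 15.01, 2.13-fold lower (1.96 to 2.32). The difference was under 2-fold against the members whose own interval lay below 1 as deposited: per Tet3 read the values were 1.97 in the knockout and 3.79 in the control, 1.93-fold lower (1.83 to 2.02), per Mbd2 read 3.37 and 6.17, 1.83-fold lower (1.72 to 1.94), and per Mbd1 read 7.73 and 13.3, 1.72-fold lower (1.58 to 1.88). Dnmt3a made up 51.0% of the reads of the 3 methyltransferases in the knockout (exact binomial interval 50.3 to 51.8) and 68.3% in the control (67.7 to 68.9). Dnmt1 made up 48.4% in the knockout and 31.4% in the control. A share depends on all genes of the family, and the level of Dnmt1 itself was nearly the same in both libraries. Between genes, shares of reads also reflect transcript length.

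**Figure D2:**
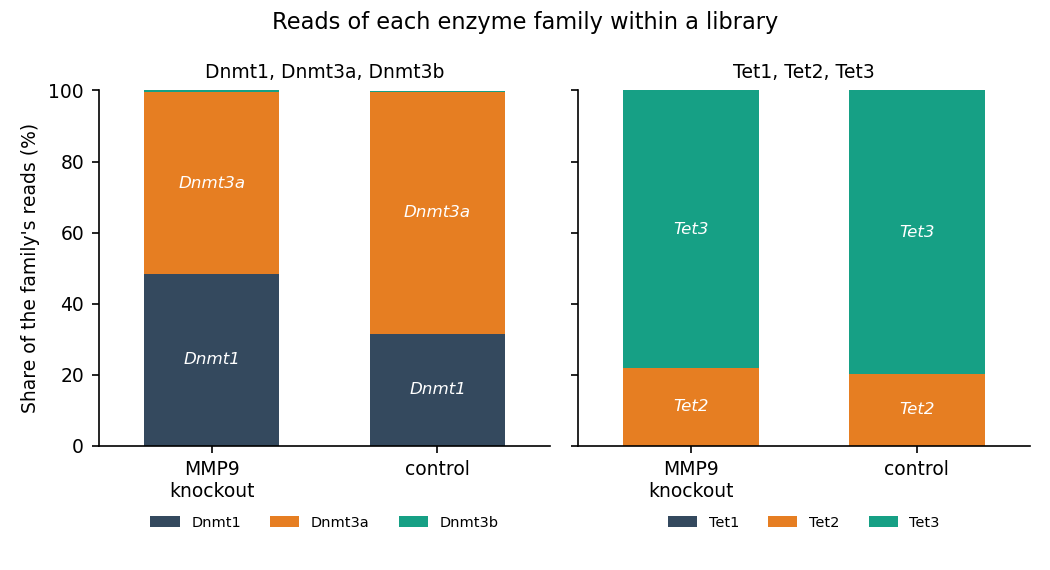
Share of reads (%) that each gene holds of its family within a library, MMP9 knockout left and control right, for the methyltransferases and the Tet genes. Dnmt3a holds 51.0% of methyltransferase reads in the knockout and 68.3% in the control, while Tet2 holds 21.9% of Tet reads in the knockout and 20.2% in the control.

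Among the erasers, Tet3 carried most reads and Tet1 none. Tet3 (ENSMUSG00000034832, chromosome 6) was at 105 in the knockout and 115 in the control, from 4419 and 4617 reads. Its ratio of 0.915 (0.878 to 0.954) lay below 1 with the values as deposited, and the log2 ratio of -0.13 turned to between 0.05 and 0.19 under the scalings and the centring by GC content. Tet2 (ENSMUSG00000040943, chromosome 3) was at 29.4 in the knockout and 28.97 in the control, a ratio of 1.01 (0.936 to 1.10). Tet2 held 21.9% of the Tet reads in the knockout and 20.2% in the control. Reads of Tet2 per read of Tet3 were 0.280 in the knockout and 0.253 in the control, a ratio of 1.11 (1.01 to 1.21). Tet1 (ENSMUSG00000047146, chromosome 10) had 0 reads in both libraries, and a count of 0 allows a level of up to 0.0713 in the knockout and 0.0745 in the control, taking 3 reads as the limit.

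The readers Mbd1 and Mbd2 were slightly lower as deposited. Mbd1, which binds methylated and, through its CXXC domain, unmethylated CpGs, was at 26.7 in the knockout and 32.6 in the control, 1.22-fold lower (1.13 to 1.32). Mbd2, the methyl-CpG binding subunit of the NuRD corepressor, was at 61.3 in the knockout and 70.4 in the control, 1.15-fold lower (1.09 to 1.21). Both differences depended on the scaling: the log2 ratio of Mbd1 was -0.0017 with equal sums, and that of Mbd2 was 0.08 under that scaling and 0.19 after the GC centring. Reads of Mbd1 per read of Mbd2 were 0.436 in the knockout and 0.463 in the control, a ratio of 0.942 (0.855 to 1.04) whose interval includes 1.

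**Figure D3:**
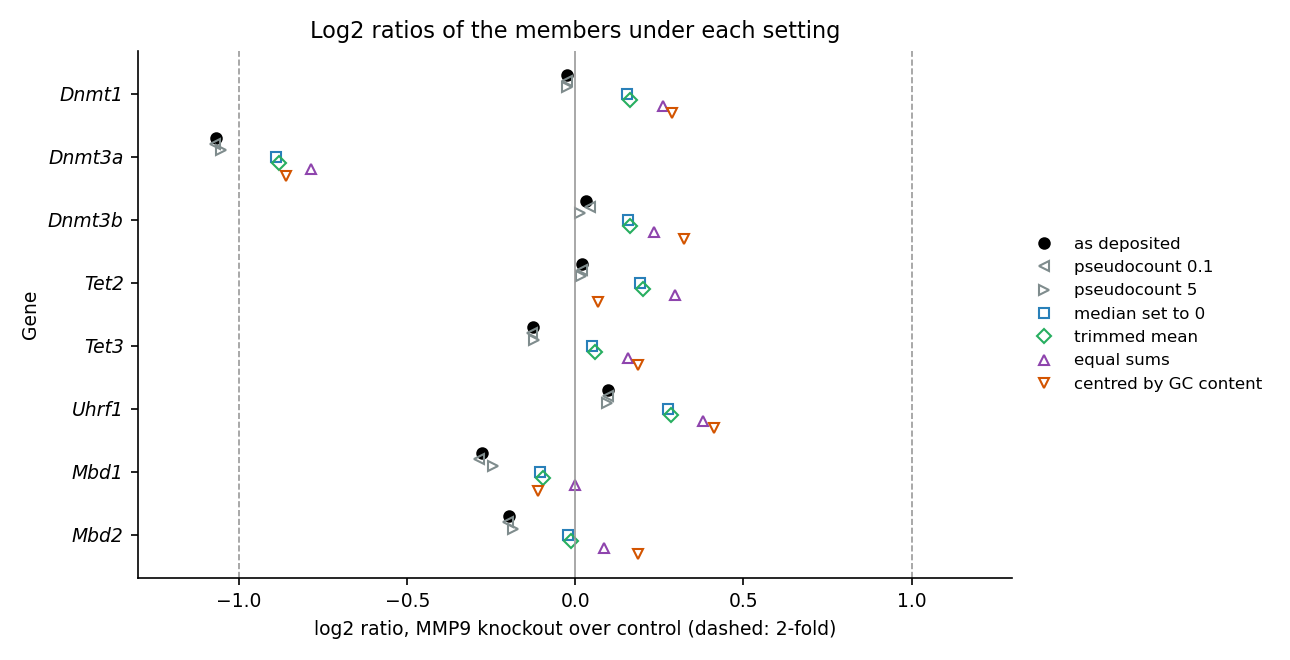
Log2 ratio of MMP9 knockout over control (x axis) for the 8 compared members (y axis), with the values as deposited (filled) and under 6 other settings (open symbols); dashed lines mark 2-fold. Dnmt3a lies between -1.07 and -0.78 and is the only member near a dashed line, whereas the other 7 lie between -0.29 and 0.41.

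Levels of different genes can be compared only per transcript length, here the longest transcript of GENCODE M21. In normalised reads per kb, the order in the knockout was Dnmt1 at 33.4, Mbd2 at 31.4, Uhrf1 at 25.7, Dnmt3a at 21.3, Tet3 at 9.63, Mbd1 at 6.82, Tet2 at 3.20, Dnmt3b at 0.528 and Tet1 at 0. In the control it was Dnmt3a at 44.9, Mbd2 at 36.1, Dnmt1 at 34.0, Uhrf1 at 23.98, Tet3 at 10.5, Mbd1 at 8.33, Tet2 at 3.16, Dnmt3b at 0.512 and Tet1 at 0. Dnmt3a thus ranked 4 in the knockout and 1 in the control, while Mbd2, Tet3, Mbd1, Tet2, Dnmt3b and Tet1 kept their places. The counting interval of Dnmt1 met that of Mbd2 in the control, at 33.3 to 34.8 and 34.8 to 37.4, but not that of Dnmt3a. The order rests on the length used: with the median length of each gene's coding transcripts, many of which are partial models, Dnmt3a came first in both libraries.

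Other genes that act with the methyltransferases differed in both directions without passing 2-fold. Of 9 listed cofactors 6 could be compared, with 0 higher and 0 lower, against 4.00% and 9.58% of all compared genes. Most compared genes, 9615 of 11126, were within 2-fold as well, so these counts are not a result about the cofactors. Their median log2 ratio was 0.02, or 0.18 to 0.31 under the scalings and the centring by GC content. Uhrf2, a relative of Uhrf1 that binds hydroxymethylated DNA, was at 23.2 in the knockout and 37.6 in the control, 1.62-fold lower (1.49 to 1.76). Reads of Uhrf2 per read of Uhrf1 were 0.252 in the knockout and 0.437 in the control, 1.73-fold lower (1.58 to 1.91). Hells, a chromatin remodeller needed for normal DNA methylation and named after its values were seen, was at 69.3 in the knockout and 35.3 in the control, a ratio of 1.96 (1.84 to 2.09). It passed 2-fold under the 3 scalings, with log2 ratios of 1.13 to 1.23, but not as deposited or after centring by GC content. Per Dnmt1 read there were 0.353 Hells reads in the knockout and 0.177 in the control.

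Removal of oxidised methylcytosine, which runs through the glycosylase Tdg and base excision repair, also stayed within 2-fold. Of 14 listed genes 12 could be compared, with 0 higher and 0 lower, against 4.00% and 9.58% of all compared genes. As 9615 of 11126 compared genes were within 2-fold too, these counts are not a result about the 12 genes. Their median log2 ratio of -0.15 turned to between 0.01 and 0.15 under the scalings and the centring by GC content. Tdg was at 79.1 in the knockout and 58.9 in the control, a ratio of 1.34 (1.27 to 1.42), and the glycosylase gene Mbd4 was at 8.36 and 6.91. Idh2, which makes the Tet cofactor 2-oxoglutarate in mitochondria and was named after its values were seen, was at 79.7 in the knockout and 160 in the control. Its log2 ratio of -0.998 was short of 2-fold, and only a pseudocount of 0.1 took it past, at -1.01. Under the scalings and the centring by GC content the Idh2 ratio was -0.82 to -0.62, and with a pseudocount of 5 it was -0.96. Gadd45a, also named after its values were seen and too low for comparison, had 18 reads in the knockout and 1 in the control, a ratio of 17.2 with an interval from 2.72 to 717.

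The list of other methyl-CpG and CpG binding proteins, which also holds relatives of such proteins, included the only pathway genes past 2-fold as deposited. Both were lower in the knockout. Of 10 listed genes 8 could be compared, 2 were lower and 0 higher, against the 9.58% and 4.00% of all genes, and the median log2 ratio was -0.40, or -0.23 to -0.14 under the scalings and the centring by GC content. With 8 genes, in a list chosen with earlier results known, these counts are not a result about the list. Zbtb38, a zinc finger protein that binds methylated DNA, was at 13.4 in the knockout and 38.8 in the control, 2.90-fold lower (2.63 to 3.20), and was past 2-fold under each of 6 alternatives. Its relative Zbtb4 was at 2.85 in the knockout and 8.50 in the control, 2.98-fold lower (2.41 to 3.70), and was within 2-fold only with a pseudocount of 5. Mbd3, which sits in NuRD without a preference for methylated DNA, was at 39.8 in the knockout and 50.5 in the control, and Mbd5 was at 5.51 and 7.95. Mbd5 overlaps Orc4 on the opposite strand, which was at 13.9 in the knockout and 8.47 in the control, so reads of this pair may not be separable. Mbd6, a relative of Mbd5 named after its values were seen, was at 6.89 in the knockout and 14.2 in the control, 2.06-fold lower (1.79 to 2.38). Its log2 ratio was -0.95 with the pseudocount of 1 and past 2-fold, at -1.03, only with 0.1. The Mbd6 ratio was -0.79 to -0.69 under the 3 scalings, -0.69 with a pseudocount of 5 and -0.39 after centring by GC content. The osteoclast markers were lower as well, and their part in these values was not tested.

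NuRD, the deacetylase and remodelling complex that Mbd2 recruits, stayed close to equal levels. All 11 listed subunits were compared and within 2-fold, as were 9615 of all 11126 compared genes. The log2 ratios of the subunits ran from -0.47 to 0.26, with a median of 0.02, or 0.20 to 0.30 under the scalings and the centring by GC content. Its ATPase gene Chd4 was at 302.5 in the knockout and 298.5 in the control, a ratio of 1.01 (0.988 to 1.04), and Chd3 was at 48.2 and 62.5. Genes that supply the methyl donor S-adenosylmethionine were within 2-fold in all 11 cases that could be compared, of 12 listed. Over all compared genes 4.00% were higher and 9.58% lower. Of the 11 donor genes, 9 had a log2 ratio above 0 and 2 below as deposited. Among all 11126 compared genes 4155 were above 0 and 6971 below, and such a split depends on the scaling. The median of the donor genes was 0.26, or 0.34 to 0.54 under the scalings and the GC centring. Mat2a, which makes the donor, was at 203 in the knockout and 186 in the control, a ratio of 1.09 (1.06 to 1.13), and its regulatory subunit gene Mat2b was at 24.02 and 26.5.

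**Figure D4:**
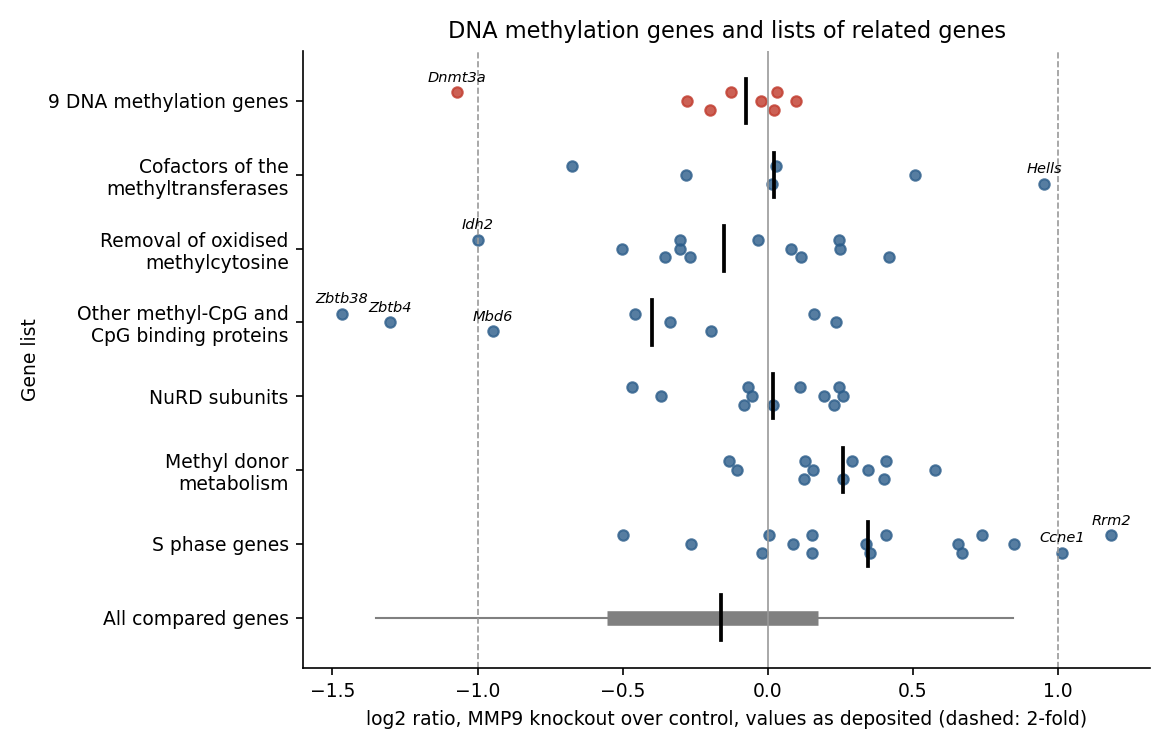
Log2 ratios of MMP9 knockout over control, as deposited (x axis), for the compared genes of each list (points, spread vertically for legibility); black bars are medians and dashed lines mark 2-fold. For all compared genes the thick bar holds the middle 50% and the thin line runs from the 5th to the 95th percentile. The list of other CpG binding proteins has 2 genes below -1, and the lists of NuRD and methyl donor genes have none past 2-fold. Of all compared genes, 9.58% were lower and 4.00% higher by at least 2-fold.

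The replication context of Dnmt1 and Uhrf1 was described with 16 genes of S phase and proliferation, such as the replication helicase genes. All were compared, 2 passed 2-fold on the higher side and 0 on the lower, against 4.00% and 9.58% of all compared genes, and the median log2 ratio was 0.34, or 0.46 to 0.63 under the scalings and the GC centring. The 2 were the cyclin gene Ccne1, at 27.9 in the knockout and 13.3 in the control, and the ribonucleotide reductase gene Rrm2, at 95.8 and 41.6. Ccne1 was within 2-fold with a pseudocount of 5, at a log2 ratio of 0.85, which left 1 gene higher, while 3 were higher with the median ratio set to 0, a trimmed mean or the GC centring and 4 with equal sums. Mki67 was at 321 in the knockout and 325 in the control, and Top2a at 222 and 199.5. Dnmt1 at -0.03 and Uhrf1 at 0.10 were thus below the median of these genes and within their range of -0.50 to 1.18.

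Genes tied to DNA methylation in osteoclast formation stood beside Dnmt3a as follows. Irf8, the gene that Dnmt3a silences in mouse osteoclast precursors, was at 9.45 in the knockout and 0.745 in the control, 12.7-fold higher in the knockout (8.74 to 19.05), from 398 and 30 reads. An annotated gene that overlaps Irf8 on the same strand, Gm20388, was at 12.3 in the knockout and 28.1 in the control, so the counting may have split reads between them. Sfpi1, which encodes PU.1, was at 47.5 in the knockout and 98.4 in the control, 2.07-fold lower (1.96 to 2.19). Nfatc1, the main transcription factor of osteoclast formation, was at 177 in the knockout and 378 in the control, 2.14-fold lower (2.08 to 2.20). Like Dnmt3a, Sfpi1 and Nfatc1 were within 2-fold under each scaling and after centring by GC content, and Sfpi1 also with a pseudocount of 5, at -0.98. Irf8 reached the level limit only through the knockout, and its log2 ratio of 2.58 depended on the pseudocount, at 3.50 with 0.1 and 1.33 with 5. In the knockout library, the lower osteoclast markers and the 4 higher of 6 compared macrophage markers stood beside all 3 genes. The part of these markers in the differences was not tested. DNA methylation itself was not measured in these data.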

How the data were processed

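Reads were aligned with TopHat to mm9, as the submitters' processing notes record. For the TopHat version, the counting program, the annotation, strand use and normalisation, nothing is given in the sources used here. Log2 values, titled as normalised RPKM, were deposited by the authors in 1 table. After conversion from log2, 99.99% of the values in each library lay within 0.05 of whole multiples of 1 step, the same for all genes (0.0238 in the knockout, 0.0248 in the control), so they were treated as scaled read counts without division by length. Genes at 0.9 of the step were set to 0. Positions and transcript lengths came from GENCODE M21 (GRCm38) by Ensembl identifier, with 23607 genes matched; GC content was known for 96.2% of compared genes. Intervals on folds of single genes and on shares are exact (Clopper-Pearson, scipy 1.17.1, Python 3.11.15). Ratios between genes were compared between libraries by conditional odds ratios with their exact intervals. Intervals on levels per kb are exact Poisson intervals. Calculations were checked on simulated counts. Genes named are the 9 members, Mmp9 and, in each pathway or context list, those past 2-fold and the first 2 others; exceptions are stated. The members and lists were chosen with earlier results of these data known. Alternatives were pseudocounts of 0.1 and 5, no filter or a mean of at least 5, 3 scalings, and centring in 20 bins of GC content; the second length per gene was added after the data were seen. Of 152 list entries 3 had no entry in the table, and 1 further gene of the CpG binding list is not reported here and was left out of its counts and median.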

Additional observations from a re-analysis of the deposited data

How the results depend on the processing

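No paired analysis was possible because each genotype has a single library without a replicate number, and leaving out a library was likewise not possible. Scaling decided the only call among the members: 1 member was lower by 2-fold as deposited and 0 were with the median ratio set to 0, a trimmed mean, equal sums or centring by GC content; by construction the scalings raise every ratio, by 0.18, 0.19 and 0.29 on the log2 scale. No member was higher under any of the 8 alternatives. Of all compared genes, 603 were lower and 255 higher when the pseudocount was 5, which by construction shrinks the ratios of low genes, 684 and 674 with equal sums, and the GC centring left 701 lower. Of the pathway genes, 2 were lower as deposited, 4 with a pseudocount of 0.1 and 1 with a pseudocount of 5, and 1 was higher under each of the 3 scalings, against 0 as deposited. For 19 genes 114 alternative log2 ratios were computed, of which 49 stayed within the counting interval on the scale with a pseudocount of 1, 65 left it, and none past 2-fold changed sign. Depth limits Dnmt3b, Gadd45a and the genes near 0, and Tet1 was not detectable.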

Other observations

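Germline genes whose promoters are normally methylated in somatic cells were almost silent in both libraries. Of the 13 genes found, 6 had no read in either library, among them Ddx4, a germ cell RNA helicase gene, and the summed level was 1.47 in the knockout and 1.22 in the control. A read in at least 1 library was found for 7 of the 13, against 16658 of all 26037 genes. The count without a read is therefore not a result about these germline genes. Dazl, which encodes an RNA-binding protein of germ cells, had 0 reads in the knockout and 1 in the control. Most of the sum came from Sycp1, named after its values were seen, at 1.31 in the knockout and 0.919 in the control, a ratio of 1.42 (0.920 to 2.22) whose interval includes 1. Sycp3, likewise named after its values were seen, had 1 read in the knockout and 9 in the control.

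Imprinted genes, which are expressed mainly from 1 parental copy under the control of DNA methylation, were also mostly at 0. Of the 15 found, 9 had no read in either library, including H19 and Igf2. Of all 26037 genes, 16658 had a read in at least 1 library, against 6 of these 15. With so few genes this count is not a result about the imprinted genes. The level for comparison was reached by 4, of which 1 was lower and 0 higher, against 9.58% and 4.00% of all compared genes. Grb10, an adaptor of insulin receptor signalling, was at 0.095 in the knockout and 2.48 in the control, from 4 and 100 reads, 26.2-fold lower in the knockout (9.90 to 97.8). That 1 gene passed the level limit only through the control, and with a pseudocount of 5 its log2 ratio was -0.55. Igf2r, the receptor that sorts lysosomal enzymes and a gene named after its values were seen, was at 259.5 in the knockout and 515 in the control, 1.99-fold lower (1.94 to 2.03). Its antisense transcript Airn was at 0.546 in the knockout and 0.845 in the control. The osteoclast markers were lower in the knockout in the same direction as Grb10 and Igf2r, and their part in these differences was not tested.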
